A study of Mus musculus with 6 samples.

Results

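Neutrophils are short-lived granulocytes that leave the bone marrow under granulocyte colony-stimulating factor (G-CSF) and follow chemokines of the CXC family into inflamed or malignant tissue through the receptor CXCR2. Once there they release granule proteins and cytokines, and in liver cancer they are known as a part of the TME that can favor or restrain a tumor. The 10 genes described here are genes that mouse neutrophils express: the alarmins S100a8 and S100a9, the receptors Csf3r, Cxcr2, Trem1 and Clec4d, the secreted protein Retnlg, the surface protein Ly6g, and the enzymes Acod1 and Hdc. They were taken by name from the 56884 genes of the mouse count table, and all 10 reached the total of at least 10 counts that was asked of the 18018 genes tested. Several of them are not exclusive to neutrophils, since monocytes and macrophages can express Csf3r, Trem1, Clec4d, Acod1, S100a8 and S100a9, and mast cells and basophils express Hdc.

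RNA came from tissue labelled liver of male athymic BALB/c (nu/nu) mice, which lack a thymus and most T cells. The age given for them is 6 weeks, which by the paper's account is their age at implantation, and the tissue was taken later. Human HCC cells (the line QGY-7703) had been placed in the liver, and 1 week later the mice received AAV8 with a control siRNA (siControl, genotype label WT, 3 libraries) or with an siRNA against mouse Aatf (siAATF, genotype label KD, 3 libraries) and were followed for 3 weeks. Both vectors used the TBG promoter, which is active in hepatocytes and not known to be active in neutrophils. The labels do not tie libraries to animals, so p-values measure the spread between these libraries.

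Depth and tissue makeup differed between the groups. Mouse genes held 213022 to 913584 counts in siControl, 0.778% to 1.93% of all gene counts, and 11835898 to 42563694 counts in siAATF, 97.9% to 99.0% of all gene counts. Counts of the 6 hepatocyte markers summed to 757 to 6350 in siControl and 144082 to 2225536 in siAATF, so the defining markers of the labelled tissue were present in each library but were a small part of the siControl libraries. The share of tumor and liver RNA in the libraries differed wholly between the groups, so in every difference below the tissue sampled and the siRNA cannot be told apart. For the target Aatf the siControl libraries held 12, 1 and 23 counts and the siAATF libraries 384, 109 and 340. With TMM normalization its log2 fold change, siAATF over siControl, was 0.93 (standard error 0.47, edgeR, adjusted p = 0.152). In plain CPM of mouse counts the direction turned, with 15.6 ± 10.3 (SD, n = 3) for siControl against 9.32 ± 0.363 (SD, n = 3), and the groups overlapped, so it was not called lower in the libraries labelled siAATF. A gene listed at 0 could still be present at up to 3 counts, a limit of 3.28 to 14.1 CPM (counts scaled to a library total of 1000000 mouse counts) for the siControl libraries and of 0.0705 to 0.253 CPM for the siAATF libraries. These limits and all intervals cover counting error only, since PCR copies of 1 molecule are counted separately. For the neutrophil genes a library of each group stood apart from its group: siControl replicate 1 was low and siAATF replicate 3 high. Counts of members called are given with and without them for TMM normalization and relative to leukocyte RNA. The summed levels are given with and without them relative to leukocyte RNA only.

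The sequences before the starts of 4 of these genes are shown because they belong to the members on which the results turn. S100a8 and S100a9 were the most abundant, and Acod1 and Clec4d were the members whose difference was called under all 3 scalings of the libraries used below. Each line gives the 250 bases before the RefSeq start, 5′ to 3′ on the gene's strand, with coordinates of GRCm38.p6, the build of the RefSeq sequences. Capitals mark matches, on either strand, to GAGGAAG, a core of the motif of the myeloid factor PU.1, or to TTGCNNAA, part of the C/EBP motif.
S100a8, chr3:90668821-90669070, plus strand: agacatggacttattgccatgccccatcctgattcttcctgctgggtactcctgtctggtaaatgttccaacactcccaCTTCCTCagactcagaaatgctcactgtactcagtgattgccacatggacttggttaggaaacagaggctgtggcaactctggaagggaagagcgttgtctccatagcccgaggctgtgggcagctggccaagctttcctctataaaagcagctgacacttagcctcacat
S100a9, chr3:90695722-90695971, minus strand: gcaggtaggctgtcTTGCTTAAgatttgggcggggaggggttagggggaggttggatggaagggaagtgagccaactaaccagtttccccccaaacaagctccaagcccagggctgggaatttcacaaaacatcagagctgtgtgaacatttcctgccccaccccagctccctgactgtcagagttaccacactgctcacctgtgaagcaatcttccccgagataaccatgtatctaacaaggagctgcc
Clec4d, chr6:123261857-123262106, plus strand: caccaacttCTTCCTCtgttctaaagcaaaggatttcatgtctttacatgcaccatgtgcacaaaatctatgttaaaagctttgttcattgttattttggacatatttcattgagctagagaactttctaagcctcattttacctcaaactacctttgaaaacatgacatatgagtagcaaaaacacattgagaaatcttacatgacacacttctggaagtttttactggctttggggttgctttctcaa
Acod1, chr14:103046762-103047011, plus strand: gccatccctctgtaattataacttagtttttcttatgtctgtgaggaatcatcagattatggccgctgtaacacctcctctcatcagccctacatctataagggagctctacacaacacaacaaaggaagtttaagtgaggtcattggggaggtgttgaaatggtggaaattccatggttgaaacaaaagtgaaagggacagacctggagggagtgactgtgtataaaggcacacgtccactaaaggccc
In the 300-base windows from 250 bases before to 50 after a start, GAGGAAG was found for 4 members (S100a8, Csf3r, Clec4d and Ly6g) and TTGCNNAA for 3 (S100a9, Retnlg and Ly6g). The windows of Cxcr2, Trem1, Acod1 and Hdc held neither. Of the 32851 promoter windows of the mouse genome, 13.63% held the first motif and 10.8% the second. The matches describe letters only.

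Of the 10 genes, the alarmin S100a9 had the most counts per kilobase of exon in every library, and its partner S100a8 was second in 4 of 6. Their proteins form the calcium-binding dimer calprotectin, which fills the neutrophil cytosol and binds the receptors Tlr4 and Ager when released. For S100a8 (ENSMUSG00000056054, GRCm39 chromosome 3, 90576285 to 90577342), siControl replicates 1 to 3 held 18, 151 and 537 counts, and siAATF replicates 1 to 3 held 14, 0 and 688. For S100a9 (ENSMUSG00000056071, chromosome 3, 90599939 to 90603028), the values in the same order of replicates were 49, 524 and 1633 against 42, 9 and 1364. In siControl the first library was low and the other two high, while in siAATF the third library was high and the other two low, so for both genes the spread within each group was wide. In CPM of mouse counts with TMM normalization, which sets most genes of the libraries to a common level, the siControl mean of S100a9 was 738 ± 630 (SD, n = 3) and the siAATF mean 26.3 ± 42.7 (SD, n = 3). The log2 fold change was -4.80 (standard error 1.49, edgeR, adjusted p = 0.0267). S100a8 averaged 226 ± 186 (SD, n = 3) against 12.9 ± 21.9 (SD, n = 3), and its log2 fold change of -4.10 (standard error 1.52, edgeR, adjusted p = 0.0570) did not pass, whereas without siAATF replicate 3 (-9.22, edgeR, adjusted p = 2.40e-07) or without siControl replicate 1 (-4.67, edgeR, adjusted p = 0.0360) it did. On this scale siAATF replicate 3 lay above siControl replicate 1 for both genes, so the groups overlapped. In CPM without TMM they did not, with S100a9 at 39.0 in siAATF replicate 3 and 69.7 in siControl replicate 1.

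The pair kept S100a9 above S100a8 in every library. S100a9 made up 73.1%, 77.6% and 75.3% of the counts of both alarmins in siControl, 75% in siAATF replicate 1 and 66.5% in siAATF replicate 3. The exact 95% binomial intervals of the 2 deepest libraries, 73.4% to 77.1% in siControl replicate 3 and 64.4% to 68.5% in siAATF replicate 3, did not overlap, which compares these libraries and not the conditions. In siAATF replicate 2 all 9 counts of the pair were S100a9. Both alarmins together were 34.6% to 79.3% of the counts of all 10 genes, with the lowest shares in siControl replicate 1 (41.6%), siAATF replicate 1 (34.6%) and siAATF replicate 2 (39.1%).

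The receptors that bring neutrophils out of the marrow and into tissue followed the same pattern of libraries. Csf3r encodes the receptor of G-CSF (ENSMUSG00000028859, chromosome 4, 125918343 to 125938233) and was counted 41, 60 and 162 times in the siControl libraries and 18, 2 and 183 times in the siAATF libraries. Its TMM-normalized CPM was 89.3 ± 56.0 (SD, n = 3) against 3.72 ± 5.56 (SD, n = 3) in siAATF. Its log2 fold change was -4.47 (standard error 0.99, edgeR, adjusted p = 0.00414), and every siAATF library lay below every siControl library. Cxcr2, the receptor of the chemokines Cxcl1, Cxcl2 and Cxcl5 (ENSMUSG00000026180, chromosome 1, 74193150 to 74200405), was counted 4, 31 and 83 times against 6, 0 and 159 times. Its log2 fold change was -3.60 (standard error 1.24, edgeR, adjusted p = 0.0421), the smallest difference of the 10 genes, and the groups overlapped. For both receptors siAATF replicate 3 held most of the siAATF counts.

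Trem1 and Clec4d, receptors that amplify inflammatory signals in myeloid cells, differed more. Trem1 signals through the adaptor Tyrobp (ENSMUSG00000042265, chromosome 17, 48539796 to 48553952) and had 8, 14 and 37 counts in the siControl libraries against 1, 0 and 12. Clec4d is a C-type lectin that senses microbial glycolipids (ENSMUSG00000030144, chromosome 6, 123239076 to 123252224) and had 22, 36 and 115 counts against 5, 0 and 24. The log2 fold changes were -6.09 for Trem1 (standard error 0.97, edgeR, adjusted p = 0.000522) and -6.53 for Clec4d (standard error 0.88, edgeR, adjusted p = 0.000181), and the groups did not overlap for either gene.

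Acod1 differed most. It encodes the mitochondrial enzyme that makes itaconate from cis-aconitate and is induced in activated macrophages and neutrophils (ENSMUSG00000022126, chromosome 14, 103284413 to 103294009). The siControl libraries held 13, 25 and 132 counts of it and the siAATF libraries 0, 0 and 1, although the latter held many more mouse counts. Its TMM-normalized CPM was 48.1 ± 33.3 (SD, n = 3) against 0.0185 ± 0.0320 (SD, n = 3). The fitted log2 fold change was -10.49 (standard error 0.99, edgeR, adjusted p = 2.99e-05), a value that depends on how the fit treats the single siAATF count. Summed over the libraries, the ratio of siControl to siAATF per mouse count was 8302, with a 95% counting interval of 1470 to 329820. Per gene count of both species it was 130 (23.1 to 5180) and per pan-leukocyte count 161 (28.6 to 6406), so its size rests on the scale.

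Retnlg, Ly6g and Hdc make up the remaining members. Retnlg, a resistin-like protein secreted by neutrophils (ENSMUSG00000022651, chromosome 16, 48692984 to 48694859), was counted 1, 17 and 91 times in the siControl libraries against 1, 0 and 73 times. Its log2 fold change was -4.33 (standard error 1.30, edgeR, adjusted p = 0.0223), with overlapping groups. Ly6g, the surface protein by which mouse neutrophils are commonly sorted (ENSMUSG00000022582, chromosome 15, 75027089 to 75030975), had 0, 3 and 5 counts against 0, 0 and 4. With 12 counts in all, and with relatives of similar sequence on the same chromosome for which shared reads were discarded, its level is uncertain, whatever its log2 fold change of -4.83 (standard error 1.54, edgeR, adjusted p = 0.0302). Hdc, which makes histamine from histidine (ENSMUSG00000027360, chromosome 2, 126435587 to 126460598), stood apart from the other members, with 75, 12 and 79 counts in the siAATF libraries against 5, 41 and 158. Its log2 fold change was -4.28 (standard error 0.81, edgeR, adjusted p = 0.00151). Of the members with more than 1 count in siAATF, it was the only one whose counts there did not gather in replicate 3.

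**Figure D1:**
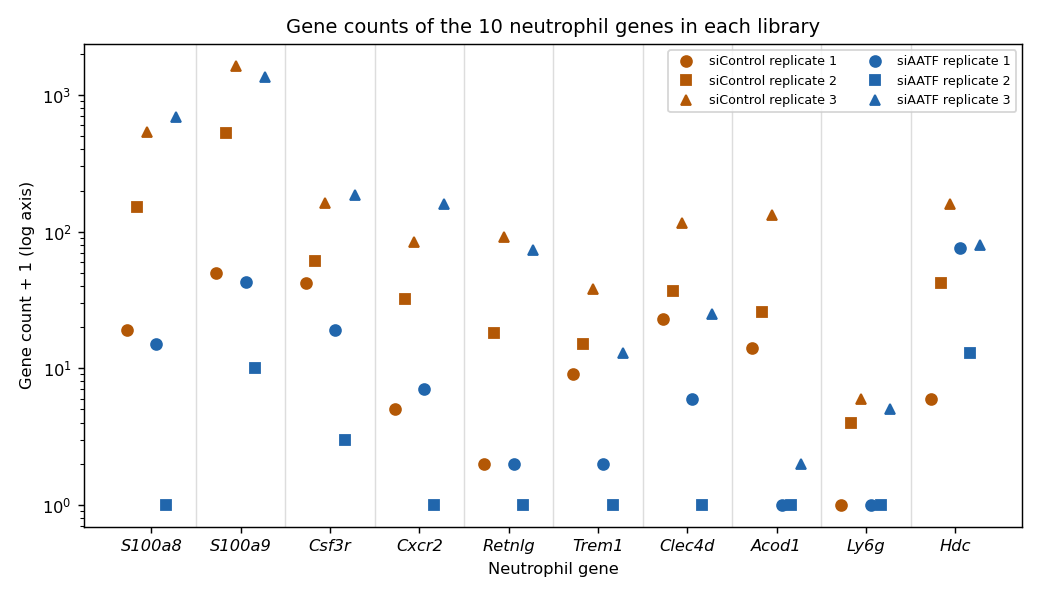
Raw counts plus 1 of each of the 10 neutrophil genes (log axis) in the 3 siControl libraries (orange) and the 3 siAATF libraries (blue), with symbol shape giving the replicate. In siAATF the triangles of replicate 3 stand far above replicates 1 and 2 for S100a8, S100a9, Csf3r, Cxcr2 and Retnlg, for Acod1 all 3 siAATF points lie at 0 or 1 count, and for Hdc the siAATF counts are 75, 12 and 79.

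Over the 10 genes, 9 were lower in siAATF at an adjusted p under 0.05 and 0 were higher, beside 14.4% of all mouse genes tested that were lower and 17.6% that were higher. At an unadjusted p under 0.05, 10 were lower and 0 higher, beside 17.8% and 24.4% of all genes. For 4 genes (Csf3r, Trem1, Clec4d and Acod1) no siAATF library reached a siControl library, beside 18.1% of all genes, and 0 members were higher without overlap, beside 34.5%. The median log2 fold change was -4.64, against 0.50 for all genes tested. The 8 pan-leukocyte genes, which include the common leukocyte antigen gene Ptprc, had a median of -4.48 and were lower for 8 of 8, so the members and leukocyte RNA at large differed between the groups by similar amounts with TMM normalization. The count of 9 fell to 5 without siControl replicate 2, without siControl replicate 3 or without siAATF replicate 2, with Csf3r, Trem1, Clec4d, Acod1 and Hdc called each time, beside 12.7%, 9.7% and 14.3% of all genes lower in these fits. Without siControl replicate 1, 10 of 10 were called at a median of -5.16, beside 12.2% of all genes. Without siAATF replicate 3 the median moved to -8.65, with 9 of 9 tested genes called, beside 14.7% of all genes. In bulk RNA, fewer neutrophils and less RNA per neutrophil cannot be told apart.

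Because the mouse share of the counts differed between the groups, the same genes were also set against all gene counts and against leukocyte RNA. In CPM of human and mouse gene counts together, the 10 genes summed to 4.41, 33.0 and 54.6 in siControl and 3.77, 1.90 and 73.1 in siAATF. Per 100 counts of the 8 pan-leukocyte genes in the same library, they summed to 7.99, 129 and 97.4 in siControl and to 5.33, 9.50 and 119 in siAATF, with exact Poisson intervals for the summed member counts that put the siControl replicate 1 value below 9.32 and the siAATF replicate 2 value below 14.3. On both scales siAATF replicate 3 lay near or above siControl replicates 2 and 3, and siControl replicate 1 lay near siAATF replicates 1 and 2. The siControl libraries averaged 78.3 ± 62.9 (SD, n = 3) on the leukocyte scale against 44.7 ± 64.7 (SD, n = 3) for siAATF, a difference smaller than the spread within either group. Without siControl replicate 1 the siControl mean was 113 ± 22.6 (SD, n = 2), and without siAATF replicate 3 the siAATF mean was 7.42 ± 2.95 (SD, n = 2). Both libraries were picked by their values for these genes, so the gap between these means was set by that choice and is no evidence of a difference. Macrophage markers differed between the libraries as well: they summed to 225, 50.6 and 112 per 100 pan-leukocyte counts in siControl replicates 1 to 3, and to 183, 226 and 129 in siAATF, with all 7 markers detected in each library. In each group the library with the fewest macrophage counts on this scale had the highest member sum, and their part in the result was not tested.

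**Figure D2:**
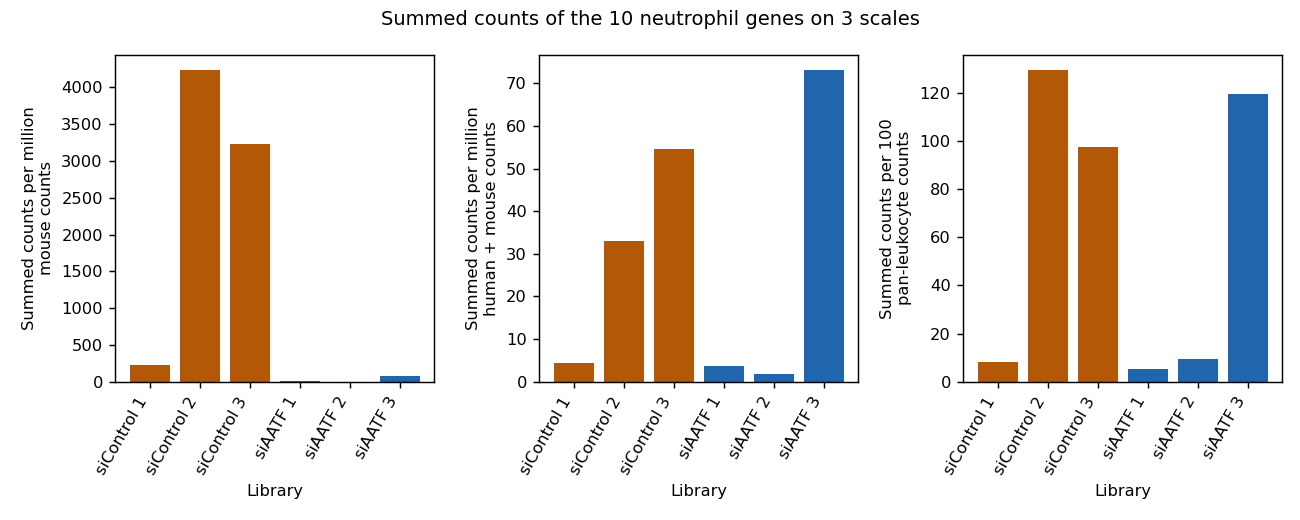
Summed counts of the 10 neutrophil genes in each library (1 bar per library, siControl orange, siAATF blue) in CPM of mouse counts, in CPM of human and mouse counts, and per 100 pan-leukocyte counts. The siControl bars of replicates 2 and 3 stand far above all others in the first panel, where siAATF replicate 3 reaches 74.0, but siAATF replicate 3 reaches 73.1 in the second panel and 119 in the third, beside 54.6 and 97.4 in siControl replicate 3.

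When the fit was scaled by pan-leukocyte counts, 2 of the 10 genes were lower at an adjusted p under 0.05 and 0 higher, beside 0.694% of all genes lower and 84.7% higher. The median log2 fold change was -0.76 over the members and 4.80 over all genes, so relative to all genes the members were lower by a median difference of -5.56, against -5.14 with TMM normalization. The genes called were Acod1 (log2 fold change -6.80, standard error 1.33, edgeR, adjusted p = 0.000472) and Clec4d (-2.67, standard error 0.99, edgeR, adjusted p = 0.0237). Trem1 was at -2.25 (standard error 1.17, edgeR, adjusted p = 0.0885) and did not pass. The other 7 genes lay between -1.05 for Ly6g and 0.17 for Cxcr2, with standard errors of 0.87 to 1.60, too wide to show whether their share of leukocyte RNA was alike. Scaling by all gene counts gave the same 2 genes, Acod1 (-6.41, standard error 1.27, edgeR, adjusted p = 9.35e-07) and Clec4d (-2.21, standard error 0.85, edgeR, adjusted p = 0.0118), beside 0.66% of all genes lower and 87.2% higher. Clec4d per 100 pan-leukocyte counts was 1.09, 5.16 and 3.79 in siControl and 0.165, 0 and 1.11 in siAATF, with siAATF replicate 3 just above siControl replicate 1, and it was no longer called without siControl replicate 2 or 3 or without siAATF replicate 1. Acod1 per 100 pan-leukocyte counts was 0.645, 3.59 and 4.36 in siControl against 0, 0 and 0.0461 in siAATF. It was the only member without overlap on this scale and on that of all gene counts, where 1.22% and 0.655% of all genes lay lower without overlap, and 83.5% and 83.9% higher.

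The leukocyte-scaled result rested on siAATF replicate 3. Without it, 8 of the 9 genes tested were lower at an adjusted p under 0.05, beside 0.909% of all genes, and Hdc was the gene not called. The median log2 value was -4.50 over these 9 genes and 5.01 over all genes. With any other library left out, 1 or 2 genes were called, and Acod1 was among them each time. In those fits the median over all genes was 4.24 to 4.93, and the share of all genes called is not given here.

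**Figure D3:**
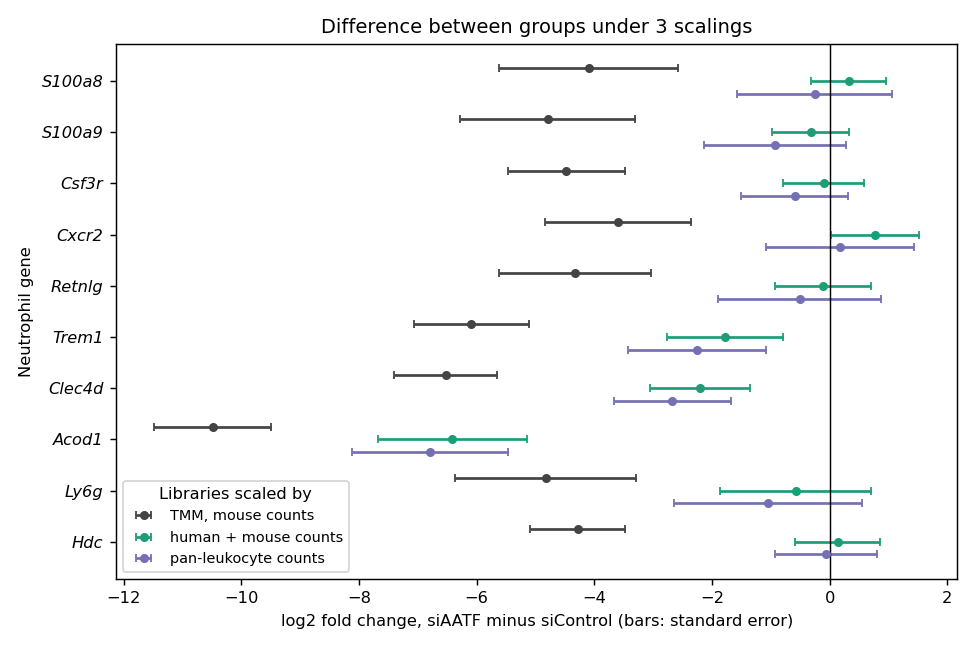
Log2 fold changes of the 10 neutrophil genes, siAATF minus siControl, with standard errors as bars, when libraries were scaled by TMM on mouse counts (dark grey), by human and mouse counts (green) or by pan-leukocyte counts (purple). All dark grey points lie between -10.49 and -3.60, and among the purple points Acod1 (-6.80), Clec4d (-2.67) and Trem1 (-2.25) stay lowest.

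Ratios within a library do not depend on such scaling, and S100a9 was taken as the reference because it held the most counts per kilobase of the 10 genes in every library. Per 100 S100a9 counts, Cxcr2 was at 5.92 (95% interval 3.98 to 8.50) and 5.08 (4.03 to 6.34) in siControl replicates 2 and 3 and at 11.7 (9.83 to 13.7) in siAATF replicate 3. Retnlg was at 3.24 and 5.57 in these siControl libraries and at 5.35 in siAATF replicate 3, and Csf3r at 11.5, 9.92 and 13.4. Of other neutrophil genes, Mmp8 was at 2.29 and 2.33 in siControl replicates 2 and 3 and at 3.59 in siAATF replicate 3, whereas Slfn4 was at 14.1 and 15.2 against 9.16, Mxd1 at 10.1 and 11.5 against 8.58, Stfa2l1 at 5.15 and 3.67 against 2.57, Clec4e at 3.44 and 4.84 against 1.39 and Asprv1 at 2.67 and 3.98 against 2.27. Neutrophil genes thus did not keep 1 ratio to S100a9 across these libraries. Acod1 was at 4.77 (3.06 to 7.12) and 8.08 (6.72 to 9.66) in siControl replicates 2 and 3 and at 0.0733 (0.00185 to 0.409) in siAATF replicate 3, where 1364 counts of S100a9 came with 1 count of Acod1. Clec4d was at 6.87 (4.76 to 9.64) and 7.04 (5.78 to 8.51) against 1.76 (1.12 to 2.63), and Trem1 at 2.67 (1.45 to 4.52) and 2.27 (1.59 to 3.14) against 0.880 (0.453 to 1.54). With 1 siAATF library of this depth the comparison is between libraries and carries no test.

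Where S100a9 was scarce the proportions were different. In siControl replicate 1, with 49 counts of S100a9, Csf3r stood at 83.7, Clec4d at 44.9 and Acod1 at 26.5 per 100 S100a9 counts, the highest values of the siControl group, and this was also the siControl library with the most macrophage marker counts per pan-leukocyte count. Hdc reached 179 per 100 S100a9 counts in siAATF replicate 1 and 133 in siAATF replicate 2, against 5.79 in siAATF replicate 3 and 7.82 to 10.2 in siControl. Hdc was not alone in this, since the transcription factor gene Mxd1 was at 181 and 244 in siAATF replicates 1 and 2 against 10.1 to 42.9 in siControl, and Il1b was at 171 in siAATF replicate 1, though in replicate 2 its 44.4 lay within the siControl range of 34.0 to 81.6. Per kilobase of exon and among the 10 members, Hdc was second after S100a9 in siAATF replicates 1 and 2, where S100a8 was second in the other 4 libraries. The mast cell and basophil markers Cpa3, Mcpt4, Tpsb2, Tpsab1, Ms4a2 and Mcpt8 had 0 counts in all 6 libraries, Fcer1a had 1 count in siAATF replicate 3 and Cma1 had 4 in siAATF replicate 1. The remaining gene of that list, Kit, which other cells also express, had 11, 6 and 19 counts in the siControl libraries and 230, 17 and 24 in the siAATF libraries. In CPM of mouse counts Kit was at 15.6, 28.2 and 20.8 in siControl replicates 1 to 3 against 5.4, 1.44 and 0.686, so every siAATF library lay below every siControl library. Per 100 pan-leukocyte counts the order turned, with 0.546, 0.861 and 0.627 against 7.57, 7.02 and 1.11. The part of mast cells and basophils in the Hdc counts was not tested.

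**Figure D4:**
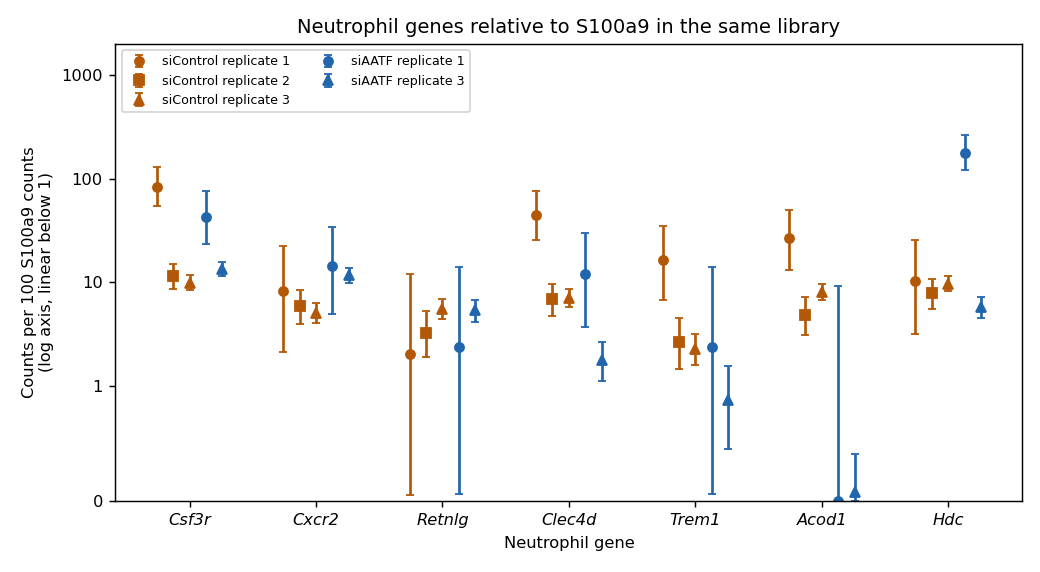
Counts of 7 neutrophil genes per 100 S100a9 counts in the same library (log axis, linear below 1) for the 3 siControl libraries (orange) and siAATF replicates 1 and 3 (blue), with exact 95% counting intervals. siAATF replicate 2 is left out because it had 9 counts of S100a9. In siAATF replicate 3, Acod1 (0.0733) and Clec4d (1.76) lie far below siControl replicates 2 and 3, Cxcr2 (11.7) lies above them, and Hdc reaches 179 in siAATF replicate 1.

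The ligands and signals that act on these receptors were examined next. Of the CXCR2 ligands, 4 of the 5 tested were lower with TMM normalization and 0 higher, beside 14.4% and 17.6% of all genes, shares that hold for each list below. Cxcl2 was counted 7, 28 and 226 times in the siControl libraries against 3, 0 and 1 times (log2 fold change -9.57, edgeR, adjusted p = 7.77e-05), and Cxcl5 had 18, 7 and 55 against 1, 0 and 6 (-7.11, edgeR, adjusted p = 5.80e-05). Cxcl3 had 1, 0 and 10 counts against 0 in every siAATF library, and the groups overlapped. With the siAATF group set to 3 counts and the siControl counts taken as exact, it was 179-fold lower per mouse count. The platelet chemokine gene Ppbp had 14, 8 and 23 counts against 104, 13 and 97 (-1.81, edgeR, adjusted p = 0.0120), and Cxcl15 had 0 counts in all libraries. Cxcl1 did not pass (1.05, edgeR, adjusted p = 0.379), at 41, 6 and 47 counts in the siControl libraries against 152, 81 and 2468. The library with the most Cxcl1 in siAATF, replicate 3, was also the one with the most S100a8, S100a9 and Cxcr2. This did not hold in siControl, where replicate 2 had the highest TMM-normalized member sum and the least Cxcl1. There, TMM-normalized Cxcl1 was at 32.9, 14.5 and 26.2 CPM in replicates 1 to 3, beside member sums of 129, 2176 and 1645. When scaled by pan-leukocyte counts, Cxcl2 (-5.71), Cxcl3 (-4.56) and Cxcl5 (-3.18) were still lower, while Cxcl1 (5.06, edgeR, adjusted p = 0.000367) and Ppbp (2.36, edgeR, adjusted p = 0.00528) were higher, so that Ppbp turned direction. On this scale 84.7% of all genes were higher and their median was 4.80, so Ppbp lay below most genes and Cxcl1 near the median. With the siAATF group set to 3 counts and the siControl counts taken as exact, Cxcl3 was 3.48-fold lower per pan-leukocyte count. Neither this ratio nor its fitted value is a bound.

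Among the genes of the G-CSF, GM-CSF and IL-17 signals, 3 of 8 tested were lower and 0 higher: Csf2ra (-4.20), Csf2rb (-2.50) and Jak2 (-2.09), the first pair encoding the GM-CSF receptor. When scaled by pan-leukocyte counts, 0 were lower and 7 of 8 higher, a share near the 84.7% of all genes. Csf2rb (1.94, edgeR, adjusted p = 0.00827) and Jak2 (2.19, edgeR, adjusted p = 0.00145) turned direction, both below the all-gene median of 4.80. The cytokine genes themselves were near 0, with 1 count of Csf3 in siControl replicate 3 and 0 counts of Csf2 and Il17a in all libraries. Of the partners of Trem1 and Clec4d, 6 of 8 were lower and 0 higher, led by the adaptors Fcer1g (-4.88, edgeR, adjusted p = 5.80e-05) and Tyrobp (-4.15, edgeR, adjusted p = 0.000242) and the kinase Syk (-3.58). When scaled by pan-leukocyte counts, these 3 lay at -0.74, 0.02 and 0.59 and did not pass, unlike Clec4d itself. Of the alarmin receptors, 1 of 5 was lower, Tlr4 (-4.13), and 0 were higher, a share near the 14.4% of all genes lower. Of the 2 histamine genes with enough counts, Aoc1, which breaks histamine down outside cells, was lower (-6.93, edgeR, adjusted p = 2.76e-05) and Hnmt, which methylates it and is expressed in liver, was higher (2.92, edgeR, adjusted p = 0.00637), while the receptor Hrh4 had 0 counts in all libraries.

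Most granule genes had few counts. Primary granule proteins are made in marrow precursors, and of their genes 0 of 3 tested were lower and 1 was higher: Prtn3 was counted 7, 1 and 17 times in the siControl libraries and 112, 576 and 6945 times in the siAATF libraries (4.66, edgeR, adjusted p = 0.00994). Mpo and Elane, made at the same stage, had 0, 0 and 24 counts and 7, 1 and 38 counts in siAATF, so the Prtn3 counts had no matching amount of either, and Ms4a3 had 0 counts in all libraries. Of 9 secondary and tertiary granule genes, 3 were lower, Mmp9 (-4.45), Mmp8 (-4.06) and Olfm4 (-3.33), and 0 higher. Lcn2, which hepatocytes also secrete in the acute phase, had 2353, 544 and 1848 counts in the siControl libraries against 356, 1685 and 118150 (0.71, edgeR, adjusted p = 0.708), again with siAATF replicate 3 the highest.

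Other genes of mature neutrophils were lower for 12 of 16 tested and higher for 2. Hcar2, a receptor of hydroxybutyrate and niacin, was at -7.53 (edgeR, adjusted p = 0.000112), the cytokine gene Il1b at -6.46 (edgeR, adjusted p = 0.000368) and the formyl peptide receptor Fpr2 at -4.27 (edgeR, adjusted p = 0.000387). The 2 higher genes, Wfdc21 (3.03) and Msrb1 (1.50), had 20642, 1054 and 15652 counts and 19606, 1537 and 8669 counts in siAATF, more than any member had in the same libraries. When scaled by pan-leukocyte counts, Hcar2 (-3.65, edgeR, adjusted p = 0.00905) and Il1b (-2.43, edgeR, adjusted p = 0.0130) were still lower, as Acod1 and Clec4d were, and Fpr2 (-0.29, edgeR, adjusted p = 0.753) did not pass. Per 100 S100a9 counts Il1b stood at 34.0 and 42.1 in siControl replicates 2 and 3 and at 7.62 in siAATF replicate 3, and Hcar2 at 4.20 and 7.23 against 0.367. In siAATF replicate 1, with 42 counts of S100a9, both were higher than in any siControl library, Il1b at 171 (116 to 257) and Hcar2 at 14.3 (4.96 to 33.8), with intervals that overlap those of siControl replicate 1.

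All 6 NADPH oxidase genes, which make the oxidative burst, were lower with TMM normalization, led by Ncf1 (-4.61, edgeR, adjusted p = 2.41e-05) and Cyba (-4.16), as were 5 of 6 integrin and selectin ligand genes, led by Selplg (-5.44), Itgam (-5.69) and Itgb2 (-5.08). Of the granulocyte transcription factors, Spi1, which encodes PU.1 (-3.53), and Cebpd (-2.88) were lower and Cebpa, which hepatocytes also express (1.96), was higher, out of 4 tested. Over the 11 lists of neutrophil ligands, partners and products, 43 of 72 genes tested were lower and 5 higher with TMM normalization, beside 14.4% and 17.6% of all genes. When scaled by pan-leukocyte counts 7 were lower and 27 higher, beside 0.694% and 84.7% of all genes. On that scale the lower and higher genes numbered 0 and 2 of 8 for the partners of Trem1 and Clec4d, 0 and 2 of 5 for the alarmin receptors, 0 and 1 of 9 for secondary and tertiary granules, 2 and 4 of 16 for other mature neutrophil genes, 0 and 1 of 6 for NADPH oxidase, 1 and 3 of 6 for integrins and selectin ligands, 0 and 2 of 4 for the transcription factors, 0 and 2 of 3 for primary granules and 1 and 1 of 2 for histamine genes, where Aoc1 was still lower (-2.77, edgeR, adjusted p = 0.0243).

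Markers of other cells moved with the groups as well. With TMM normalization, lower genes numbered 5 of 6 for monocytes, 6 of 7 for macrophages, 3 of 6 for dendritic cells, 4 of 5 for T and NK cells, 3 of 4 for platelets, 4 of 5 for fibroblasts and 3 of 4 for endothelium, and 0 of 5 for Kupffer cells, B cells and erythroid cells each, with 0 of these higher. When scaled by pan-leukocyte counts, the Kupffer cell, B cell and erythroid lists were higher for 5 of 5 each and platelets for 2 of 4 with 0 lower, and macrophages had 0 lower and 1 of 7 higher, beside 84.7% of all genes higher. Genes still lower on that scale were 2 of 5 for fibroblasts, 1 of 6 for monocytes and 1 of 6 for dendritic cells, beside 0.694% of all genes, so the 2 lower members were not alone. In the same lists, higher genes numbered 1 of 5, 1 of 6 and 2 of 6, and endothelium had 0 lower and 2 of 4 higher. By all gene counts the Kupffer cell, B cell and erythroid lists were again 5 of 5 higher and platelets 4 of 4, beside 87.2% of all genes, and 2 of 5 fibroblast and 1 of 6 monocyte genes were lower, beside 0.66%. By the same counts, 1 of 5 fibroblast and 1 of 6 monocyte genes were higher, and dendritic cells had 0 lower and 3 of 6 higher. With TMM normalization the lowest adjusted p of these lists belonged to Vcan (-6.11), Adgre1 (-4.80), Itgax (-5.88), Gzma (-2.90), Pf4 (-2.80), Col1a1 (-8.27) and Cdh5 (-3.58). All 6 hepatocyte markers were higher, led by Cps1 (5.67). The mast cell and eosinophil lists each had 1 gene with enough counts, and 0 were called with TMM normalization. Both genes were called higher by all gene counts (3.08 and 5.76) and by pan-leukocyte counts (2.95 and 5.55), as most genes were. The eosinophil gene Epx and the platelet gene Gp1bb had 0 counts in all libraries. The summed pan-leukocyte genes ranged from 1617 to 1689 TMM-normalized CPM in siControl and from 48.8 to 120 in siAATF, so their level did not follow the spread of the neutrophil genes within siControl, where the member sum ranged from 129 to 2176 on the same scale.

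Among the genes whose pattern over the 6 libraries was most like the mean of the 10 members were Plekha3 (Pearson's r = 0.990), the decoy receptor gene Il1r2 (0.987), Clec4e, the neighbour and partner of Clec4d (0.985), and the protease gene Asprv1 (0.985), out of 5515 candidates with a mean of at least 20 counts in siControl. The r is a description over 6 libraries that fall into 2 groups. Clec4e was counted 7, 18 and 79 times in the siControl libraries and 0, 0 and 19 times in the siAATF libraries. Plekha3 had 27, 11 and 44 counts against 551, 94 and 381 and a log2 fold change of -0.29, so its likeness lay in the order of the libraries and not in the size of the difference.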

How the data were processed

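RNA of 6 libraries, 3 siControl and 3 siAATF, was prepared with a SMART-Seq kit and sequenced as paired reads. The authors trimmed reads with Cutadapt, aligned them with STAR (2.7.11 per the labels) to the joined human and mouse genomes, discarded reads mapping to several places or both species, and deposited raw gene counts from featureCounts 2.0.1 in a human and a mouse table. Gene lengths and GRCm39 coordinates are other columns that the authors deposited. Whether counting used strand is not given in the sources used here. Groups came from sample titles and column names.

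Names came from a GENCODE annotation of GRCm39 for 56323 of 56884 mouse genes, and 1 human gene broken over lines was left out. Genes reaching 10 counts over the 6 libraries were tested with edgeR's quasi-likelihood test (edgeR 4.0.16, R 4.3.3, TMM, group only), with Benjamini-Hochberg adjustment over all tested genes. Fits scaled by all gene counts and by the 8 pan-leukocyte genes, DESeq2 1.42.0 (the authors' program), limma-voom (limma 3.58.1) and other settings were alternatives. The members and 25 other lists were chosen with earlier results of these data known. Genes named are the members, up to 3 genes a list with the lowest adjusted p among those that passed, list genes that passed against their list's direction or had 0 counts throughout, and the 5 most alike, apart from items not reported here. Lcn2, Cxcl1, Csf3, Mpo, Elane, Ptprc, Fcer1a, Cma1, Kit, Slfn4, Mxd1, Stfa2l1 and Ppbp were named after their values were seen. On simulated counts for this comparison, 100% of 200 genes given a log2 change of 3 were called, and 19 of 16872 unchanged ones. The changed genes were drawn from those with enough expected counts in every library and changed in both directions, with no shift in tissue makeup. The simulation therefore does not cover members near 0 counts or the scaling between groups that differ in makeup. Promoters were taken from RefSeq (GRCm38.p6), where all 10 members matched. Figures used matplotlib 3.10.9.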

Additional observations from a re-analysis of the deposited data

How the results depend on the processing

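Counts of members called depended on the scaling more than on the test. The 9 lower members became 10 with limma-voom, scaling by mouse library size alone, no filter, the replicate block and the study's own threshold, 9 with RLE, 9 of 9 tested after thinning, 8 of 9 tested with filterByExpr and 7 with DESeq2. The study's threshold called 13.1% of all genes lower. The median over all genes also moved, to -1.30 with mouse library size alone and to 1.16 with no filter. Where no share of all genes is printed here or above, a count of members has no background beside it. With all gene counts as the scale they were 2, with 8 lower list genes in place of 43 and a median log2 fold change of -0.22, and S100a8 (0.32), Cxcr2 (0.77) and Hdc (0.13) reversed. With pan-leukocyte counts they were 2, with a median of -0.76 and 7 lower list genes, and Cxcr2 (0.17) reversed. Leaving out 1 library at a time gave 5 to 10 lower members, medians of -8.65 to -4.09, and 36 to 50 lower list genes. On the pan-leukocyte scale, leaving out 1 library at a time, which was added after the data were seen, gave 1 to 8 lower members, 3 to 15 lower list genes, and medians of -0.13, -0.36 and -4.50 without siAATF replicates 1, 2 and 3 and of -1.30, -0.29 and -0.61 without siControl replicates 1, 2 and 3. There S100a8 reversed without siAATF replicate 1 (0.31) or 2 (0.28) or siControl replicate 2 (0.25). Cxcr2 reversed without siAATF replicate 1 (0.75) or 2 (0.67) or siControl replicate 2 (0.86) or 3 (0.25). Retnlg reversed without siAATF replicate 1 (0.10) or siControl replicate 3 (0.081), and Hdc without siAATF replicate 1 (0.18) or siControl replicate 2 (0.39) or 3 (0.28). None of these reversed values passed the test. Against Ptprc alone the members summed to 897 per 100 counts in siControl and 316 in siAATF. Outside the other scalings, Csf3r, Trem1, Clec4d, Acod1 and Hdc were called lower in all 15 alternatives that tested them. At least 10 counts in every library left no member to test.

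Deviations of same-numbered libraries from their group means correlated at 0.154, 0.213 and -0.0552 over 9466 genes, and siControl replicate 1 correlated best with siAATF replicate 3 (0.161), so the numbers do not pair the libraries. With the replicate block the 10 members were called at a median of -5.22, beside 0.46 over all genes, and the share of all genes called in that fit is not given here. Depth limits the siControl libraries, where 3 counts are up to 14.1 CPM of mouse counts, and siAATF replicate 2, where 8 of 10 members had at most 3 counts. The cause of these shifts was not tested.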
